A study of Danio rerio with 2 samples.

Results

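Many broad domains of RNA polymerase II (Pol II) in the 4 hpf zebrafish embryo were flanked by narrow peaks of their own, here called satellites. A satellite was a Pol II peak under 5000 bp wide that shared a cluster with at least 1 broad peak, meaning a peak of 5000 bp or more. Clusters were formed by stitching peaks whose spaces were 10000 bp or less, and those of 2 to 9 peaks were kept, on the assembled chromosomes other than chromosome 4. This rule chose 2132 satellites of the 20243 peaks in the list, or 10.53%, and they made up 14.0% of the 15281 narrow peaks on the same 24 chromosomes. They lay in 676 clusters. Width, spacing and the number of peaks in a cluster chose the satellites and are given only as description, while the side on which a satellite lay, its score and the position of its summit were not part of the rule.

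The peaks came from chromatin immunoprecipitation of untreated wild-type embryos of the Tübingen strain at 4 h post-fertilization (hpf), with the Pol II antibody 8WG16, and the input chromatin of the same stage was the other of the 2 samples. Whole embryos were pooled, so cell types within them were not separated. Biological replicates had been joined into 1 peak call by the authors, so no value here has a replicate check, and no file of the input was used here. Shares are given with 95% Clopper-Pearson (exact binomial) intervals and medians with 95% intervals from order statistics. Both cover counting error only and are too narrow, because satellites of the same broad peak are not independent.

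Pol II gathers close to the start of a gene before it moves into the gene body, and in a ChIP-seq profile this often gives a sharp summit with a lower tail that follows the direction of transcription. Strongly transcribed genes and long regulatory regions can be covered over their whole length, which gives a broad domain. In zebrafish the embryo's own genome is switched on shortly before this stage, and Pol II is then loaded across many genes that were silent in the cleavage stages. Peaks carry no strand, and a gene annotation of the build used (GRCz10) was not used here, so satellites are given by position and no gene is named.

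The 2132 satellites belonged, each by the smallest space between edges, to 754 broad peaks. Of the 676 clusters, 525 held 1 broad peak and 151 held 2 or more, up to 4. Satellites were 71.2% of the 2993 peaks in these clusters and 26.2% of the sequence covered by them, or 3049 kb. The median satellite was 970 bp wide (quartiles 530 and 2040 bp), while the median broad partner was 8035 bp wide (quartiles 6172.5 and 11557.5 bp). A single satellite flanked 267 of the broad peaks, 2 flanked 158, 3 flanked 103 and 4 or more flanked 226. The number of satellites reached 8 at 24 broad peaks, the most that the rule allows.

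Most satellites lay within 5000 bp of the edge of their broad peak, and the stitching rule keeps the first on each side within 10000 bp. The median space to the nearest broad edge was 3140 bp (2880 to 3370), with quartiles of 720 and 7620 bp and a range of 210 to 32810 bp. Of all satellites, 420 (19.7%, interval 18.03 to 21.5) lay within 500 bp, 62.3% within 5000 bp and 83.8% within 10000 bp. The remaining satellites were linked through other peaks of the cluster. Counted outward on each side of a broad peak, 937 satellites were the first, and their median space was 590 bp (530 to 640). Of these spaces, 44.8% were 500 bp or less, against 29.0% of the 4825 spaces between neighbouring peaks in clusters of 2 to 9 narrow peaks with no broad peak. That difference is a description, since spacing is part of the rule, and no test was made of it.

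The rule's thresholds cut through a continuous list. The widest satellites, 4990 bp each, lay on chromosome 16 (45945661 to 45950650, score 740) and chromosome 21 (8249171 to 8254160, score 306). The narrowest broad partners were 5020 bp on chromosome 14 (47044991 to 47050010, score 239) and 5030 bp on chromosome 20 (29024231 to 29029260, score 431). The widest spaces within the clusters were 9960 bp, and 11 narrow peaks that lay just beyond 10000 bp from a cluster with a broad peak, by up to 500 bp, had a median score of 76. The 40 clusters of 9 peaks held 301 satellites with a median score of 67, whereas the 38 clusters of 10 peaks, just outside the rule, held 316 narrow peaks with a median score of 53.

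Satellites lay mostly on the side of the broad peak that was away from its summit. The summit is the point that the peak call marks as the highest within a peak, by a measure that the list does not state. The side of the edge nearest to the summit is called the summit side, the other the far side. Of the 2132 satellites, 1422 lay on the far side and 710 on the summit side, a share of 33.3% on the summit side (interval 31.3 to 35.3), where no preference would give 50%. The far-side satellites covered 2100 kb and those of the summit side 948 kb. The imbalance was present in both genome orientations. Satellites lay on the far side in 68.3% of 1125 cases (65.5 to 71.0) where the summit was toward the lower coordinate of the broad peak and in 64.9% of 1007 cases (61.9 to 67.9) where it was toward the higher one, and 52.6% of all satellites lay at higher coordinates than their broad peak.

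**Figure D1:**
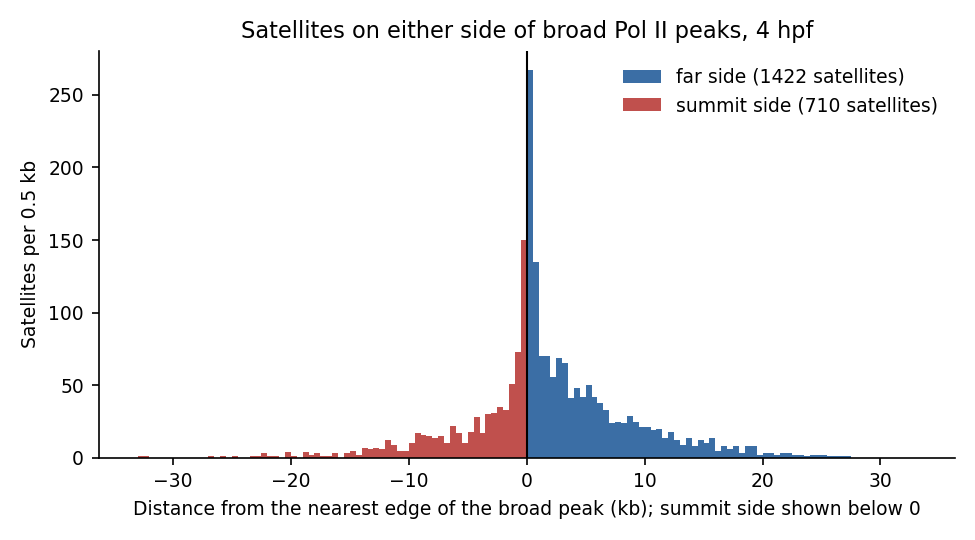
Number of satellites per 0.5 kb of distance from the nearest edge of their broad peak, with the 710 satellites of the summit side drawn below 0 (red) and the 1422 of the far side above 0 (blue). Counts were highest next to both edges, and the far side held more satellites.

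The same preference appeared when broad peaks were counted in place of satellites. Satellites were confined to the far side at 382 of the 754 broad peaks (50.7%, interval 47.0 to 54.3), to the summit side at 189 (25.1%, 22.0 to 28.3) and were present on both sides at 183 (24.3%, 21.2 to 27.5). With only the nearest satellite of each broad peak, 34.4% (31.0 to 37.9) lay on the summit side. Where a broad peak had a single satellite, it was on the far side in 159 of 267 cases (59.6%, 53.4 to 65.5). Among the 487 broad peaks with 2 or more, 37.6% (33.3 to 42.0) had satellites on both sides, 223 only on the far side and 81 only on the summit side. Among the 226 with 4 or more, the last 2 numbers were 97 and 24.

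The imbalance was largest where the summit of the broad peak stood close to its edge. Where the summit lay within the outer 5% of the broad peak, 16.6% of 398 satellites were on the summit side (13.1 to 20.6), and from 5 to 10% the share was 18.7% of 465 (15.3 to 22.6). It was 41.4% of 423 satellites (36.6 to 46.2) with the summit over 10 to 20% from the edge and 39.4% of 343 (34.2 to 44.7) at over 20 to 30%. At over 30 to 40% it was 44.7% of 275 (38.8 to 50.8). With a nearly central summit, over 40 to 50% from the edge, it was 54.4% of 228 (47.7 to 61.0), an interval that includes 50%. The largest change between neighbouring bins was at about 10% of the width, but the bins were unequal and no step or slope was fitted. With a nearly central summit both edges are almost equally near it, so the label of side means little there. Broad peaks with the summit in the outer 10% numbered 272, and 17.7% of their 863 satellites lay on the summit side (15.2 to 20.4), against 43.9% of the other 1269 satellites (41.1 to 46.7).

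**Figure D2:**
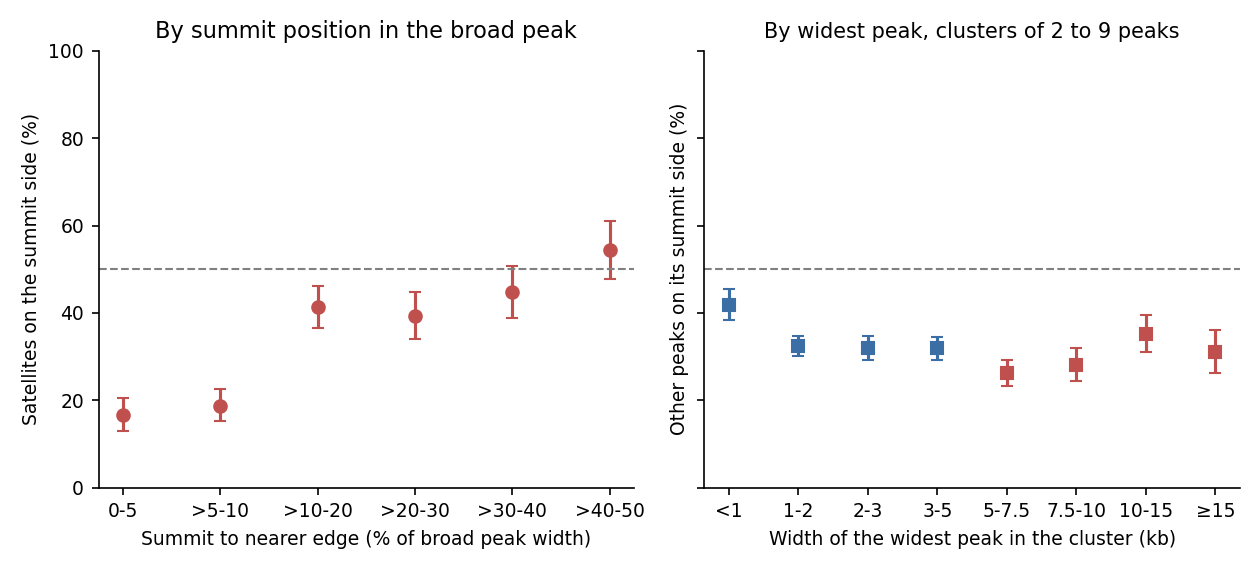
Left, share of satellites on the summit side (%) against the distance of the broad peak's summit from its nearer edge (% of the peak's width). Right, share of the other peaks of a cluster that lie on the summit side of its widest peak (%), against the width of that peak (kb), in blue where it is under 5 kb. Points are shares, bars exact binomial 95% intervals, and the dashed line marks 50%. On the left the share was 16.6% and 18.7% in the outer bins and 54.4% in the most central one. On the right all points lay under 50%.

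The imbalance was not particular to clusters with a broad peak. In every cluster of 2 to 9 peaks on the same chromosomes, the other peaks were placed relative to the widest peak and its summit. Where the widest peak was 5000 bp or more, 29.4% of 2340 other peaks (27.5 to 31.3) lay on its summit side. Where it was 2000 to under 5000 bp, so that the cluster held no broad peak, the share was 31.9% of 2404 peaks (30.1 to 33.9). With its summit in the outer 10%, the shares were 17.3% of 1042 peaks (15.03 to 19.7) and 14.2% of 408 peaks (10.97 to 17.99). Only around widest peaks under 1000 bp was the share closer to even, at 41.9% of 749 peaks (38.4 to 45.5). These shares are descriptions and the differences between them were not tested.

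The preference for the far side was present at most distances. The summit-side share was 35.7% (31.1 to 40.5) among the 420 satellites within 500 bp of the broad edge, 32.2% (26.8 to 37.9) at 3000 to 5000 bp and 27.3% (22.4 to 32.8) among the 300 satellites at over 10000 to 20000 bp. Beyond 20000 bp it was 35.6% of 45 (21.9 to 51.2), an interval that includes 50%. Without the satellites within 1000 bp it was 32.3% of 1506 (29.98 to 34.8). Of the satellites that came first on their side, 39.7% of 937 (36.6 to 42.9) were on the summit side, and of those further out 28.3% of 1195 (25.7 to 30.9). The former share is drawn toward 50% by construction, because each of the 183 broad peaks flanked on both sides gives 1 first satellite to each side, and among the 571 broad peaks flanked on 1 side it was 33.1% (29.2 to 37.1). A second satellite was present on 328 far sides out of 565 with a first, and on 164 summit sides out of 372. A satellite with order 4 was present on 129 and 49 sides, respectively.

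Counted by the width of the nearest broad peak, the imbalance was weaker beside the broadest domains. The share on the summit side was 33.0% of 540 satellites (29.0 to 37.1) beside broad peaks of 5000 to under 6000 bp and 30.9% of 492 (26.8 to 35.2) beside those of 7500 to under 10000 bp. Beside broad peaks of 6000 to under 7500 bp, 27.1% of 462 satellites (23.1 to 31.4) lay on the summit side, against 39.5% of 537 (35.3 to 43.8) beside those of 10000 to under 20000 bp. Beside the 47 broad peaks of 20000 bp or more with satellites, it was 42.6% of 101 (32.8 to 52.8), an interval that includes 50%. Counted against the widest peak of each cluster, the share was also higher at 10000 bp or more, though not highest in the widest class. There the share was 26.2% of 905 other peaks (23.3 to 29.2) at 5000 to under 7500 bp. At 7500 to under 10000 bp it was 28.0% of 564 (24.3 to 31.9). It was 35.2% of 514 (31.1 to 39.5) at 10000 to under 15000 bp and 31.1% of 357 (26.3 to 36.2) at 15000 bp or more. Width had little bearing on whether a broad peak had satellites under the rule, since 50.4% to 56.8% in each of 5 width classes did. These shares are out of all 1437 broad peaks on the 24 chromosomes. The 295 broad peaks in clusters over 9 peaks, which the rule leaves out, thus count as having none. Nor did width bear much on the satellites' score, with medians between 66 and 75.

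Satellites in clusters with 2 or more broad peaks were counted apart, between the broad peaks and outside them. In the 525 clusters with 1 broad peak, 29.3% of 1656 satellites (27.2 to 31.6) lay on the summit side. In the other clusters, 150 satellites lay between 2 broad peaks and 24.0% of them (17.4 to 31.6) were on the summit side of the nearer one, while 326 lay outside and 57.7% of these (52.1 to 63.1) were on the summit side. The broad peaks themselves were seldom turned toward each other. Of 185 pairs of neighbouring broad peaks in these clusters, 91 had their summits toward the outer edges (49.2%, 41.8 to 56.6), 78 were turned the same way, and 16 had summits that faced each other (8.65%, 5.02 to 13.7). Satellites between 2 broad peaks had a median score of 97.5 (86 to 107) and a median width of 1620 bp, against a score of 70 (66 to 73) for all other satellites. The median width of all satellites was 970 bp, and these scores were not matched for width.

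The share on the summit side varied between chromosomes but was rarely over 50%, and the variation was not tested. It was under 50% on 23 of the 24 chromosomes, and its interval lay wholly under 50% on 20. These intervals are too narrow, since satellites of 1 broad peak are not independent, so the count of 20 may be too high. On chromosome 24, for example, the 53 satellites belonged to 17 broad peaks. It was lowest on chromosome 18 (15.1% of 53 satellites, interval 6.75 to 27.6) and chromosome 9 (20.6% of 68, 11.7 to 32.1). Chromosome 12 was the exception, with 54.2% of 59 satellites (40.8 to 67.3) on the summit side, an interval that includes 50%. Chromosome 5 carried the most satellites, 161, and chromosomes 17, 18 and 24 the fewest, 53 each. For each broad peak there were between 1.01 satellites on chromosome 7 and 2 on chromosome 9, with a median of 1.54 over chromosomes.

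Most satellites were weak beside their broad peak. The score of a peak was read as 10 times its highest −log10 q, where q is the false discovery rate at which the peak would still be called, and no peak scored under 20. It measures how significant a peak is and not how much Pol II is bound. The median satellite scored 71 (69 to 74), with quartiles of 45 and 142 and a range of 21 to 17890, whereas the median broad partner scored 562 (512 to 617). The ratio of a satellite's score to that of its broad peak had a median of 0.168 (0.155 to 0.182). Score and width come from the same call, and among satellites they rose together (Spearman's rho 0.712 over 2132 satellites), so part of the gap to the broad peaks is built into the width rule. The scores of satellites and of their broad peaks were nearly unrelated (rho −0.01 over the same satellites, many of which share a partner).

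**Figure D3:**
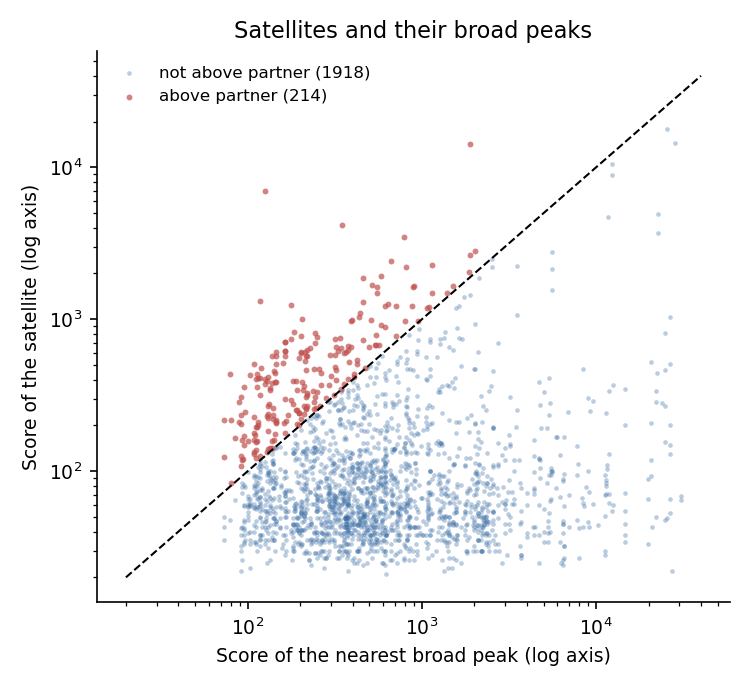
Score of each of the 2132 satellites against the score of its nearest broad peak, on log axes, with the dashed line where both are equal. The 214 satellites above their partner are red, the other 1918 blue, and no slope is visible between the scores.

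Satellites within 1000 bp of the broad peak scored higher than most of those further out. The median score was 92.5 (83 to 107) within 500 bp of the broad edge, 69 (60 to 75) at over 1000 to 2000 bp, 65 (58 to 72) at over 3000 to 5000 bp and 58.5 (54 to 71) at over 10000 to 20000 bp. It was 72 (45 to 87) among the 45 satellites beyond 20000 bp, with a wide interval. Median widths in these bins were 1370, 900, 870, 840 and 740 bp. On the far side, the median score was 85 (79 to 94) for the first satellite and 69 (62 to 74) for the second, then 58 (53 to 66), 54 (49 to 62) and 54 (50 to 64) for the third, the fourth and those beyond. On the summit side it was 85 (74 to 100), 68.5 (57 to 86), 66 (57 to 85) and 55 (46 to 84) for the first to the fourth. The 43 satellites beyond the fourth there, at 28 broad peaks, had a median score of 99 (71 to 181) and a median width of 1350 bp, above the 850 bp of their far-side counterparts.

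**Figure D4:**
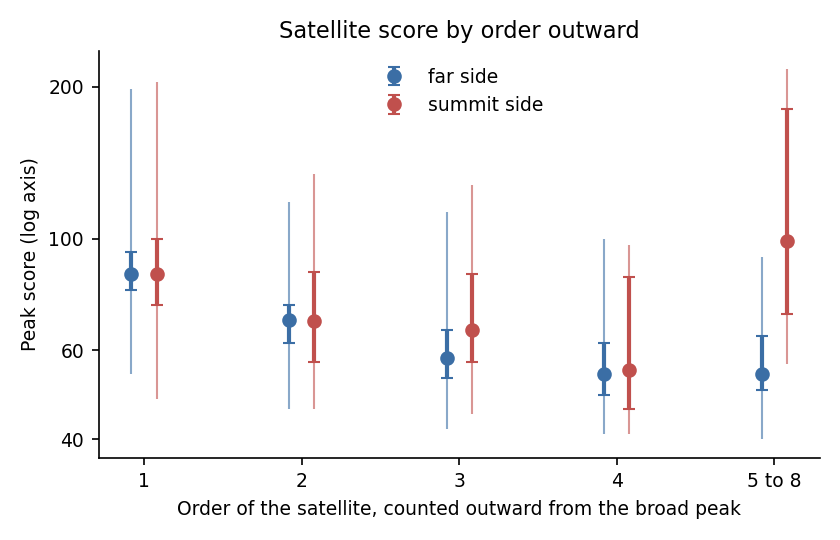
Peak score (log axis) by the order of the satellite counted outward from the broad peak, on the far side (blue) and the summit side (red). Points are medians, thick capped bars their 95% intervals and thin lines the quartiles. Medians went from 85 for the first to 54 beyond the fourth on the far side, and on the summit side from 85 to 55 for the fourth and 99 beyond it.

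The decline outward held between groups of satellites more than within single rows. On 328 far sides with 2 or more satellites, the first scored above the second in 53.0% (47.5 to 58.6), the second was higher in 149 cases and 5 were equal. On 164 summit sides the first was higher in 57.9% (49.98 to 65.6). Both intervals reach down to 50% or below. The satellite's own summit leaned outward by a small margin at most. Of 2111 satellites whose summit was not exactly central, 47.0% (44.9 to 49.2) had it in the part nearer the broad peak. The share was 45.4% (42.8 to 48.1) on the far side and 50.2% (46.5 to 54.0) on the summit side.

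A minority of satellites outscored the broad peak they belonged to. These were 214 of 2132 (10.04%, interval 8.79 to 11.4), and they made up 14.4% of the satellites on the summit side (11.9 to 17.2) and 7.88% of those on the far side (6.53 to 9.40). The group was chosen by score, so its higher scores (median 406 against 64 for the other satellites) and the lower scores of its partners (199.5 against 521) follow from the choice. Widths go with score and are likewise no finding, with medians of 2450 against 865 bp for the satellites and 6605 against 7900 bp for the partners. These satellites showed little preference of side, with 47.7% on the summit side (40.8 to 54.6), whereas the other 1918 satellites had 31.7% (29.6 to 33.8). Only 3 scored at least 10 times as high as their partner. The most extreme, on chromosome 8 (37193451 to 37194800, 1350 bp), scored 6965 beside a broad peak of 5050 bp with a score of 125 (37207051 to 37212100), at a distance of 12250 bp and as the fifth satellite on the far side. The others lay on chromosome 13, where the score was 4183 beside a broad peak of 348, and on chromosome 25 (29244981 to 29247810), where it was 1328 beside 118. The last of these was chosen after its values were seen.

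The 10 highest scoring satellites included both peaks close to very strong domains and strong peaks beside much weaker ones. The highest, 17890 on chromosome 25 (34650321 to 34654310, 3990 bp), stood 230 bp from a broad peak of 25180 bp that scored 25533. The next, 14449 on chromosome 7 (6229551 to 6232920, 3370 bp), stood 240 bp from one of 26890 bp that scored 28401. The third differed from these. It scored 14189 on chromosome 22 (39220501 to 39222530, 2030 bp), 2630 bp from a broad peak of 6440 bp with a score of only 1888. A pair on chromosome 16 shared a broad peak of 5070 bp and score 12379 (12356351 to 12361420). One of them scored 10503 (12361841 to 12362880) at 420 bp on the summit side and the other 8914 (12347051 to 12350440) at 5910 bp on the far side. The sixth was the chromosome 8 satellite described above, and the ninth, with 4183, was the one on chromosome 13 (50304561 to 50309540).

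The remaining members of the 10 flanked domains of extreme width or score. On chromosome 5, satellites scoring 4912 (42516921 to 42518080) and 3702 (42687421 to 42689580) stood at the outer edges of a pair of broad peaks of 99340 and 68310 bp, 230 and 1230 bp away. On chromosome 2, a satellite of 4722 (58665361 to 58669490) lay 480 bp from a broad peak of 10510 bp with a score of 11740. Of the 10, 4 were on the summit side and 3 scored above their partner.

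The 5 clusters with the most satellites, chosen by covered length among the 24 with 8, were laid out in different ways. On chromosome 11 (25058501 to 25100080) a broad peak of 19560 bp scored 2187 and had its summit 2.51% of its width from the outer edge. All 8 of its satellites were on the far side. Outward they scored 30, 41, 313, 50, 30, 44, 35 and 54, so that a single stronger peak stood among weak ones. On chromosome 8 (17975091 to 18009470) the layout was reversed. The broad peak of 8530 bp scored 129, and all 8 satellites were on its summit side, with scores outward of 25, 94, 64, 86, 52, 133, 229 and 394. There the outermost satellite scored highest, above the broad peak itself.

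The other 3 clusters had satellites on both sides. On chromosome 15 (616611 to 677200) a broad peak of 22430 bp with a score of 2084 had 5 satellites on the summit side, up to 32490 bp away, and 3 on the far side, and their scores ranged from 44 to 129. On chromosome 10 (1653671 to 1690770) 2 satellites were on the summit side and 6 on the far side of a broad peak of 7130 bp and score 212, and 1 on the summit side scored 529. On chromosome 2 (20118871 to 20145960) 1 satellite on the summit side scored 355, above the 135 of its broad peak of 7270 bp, and the 7 on the far side scored between 53 and 141.

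**Figure D5:**
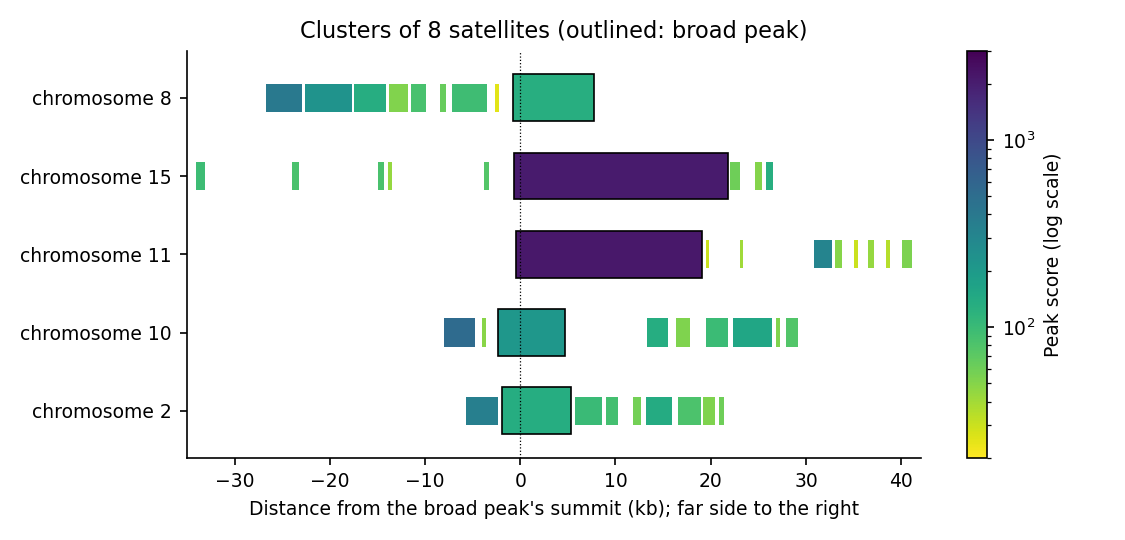
The 5 clusters with the most satellites, drawn by distance from the broad peak's summit (kb) with the far side to the right. Outlined boxes are broad peaks, plain boxes satellites, and colour gives the peak score on a log scale. All 8 satellites lie to the right on chromosome 11 and to the left on chromosome 8, and the other 3 clusters have satellites on both sides.

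Broad peaks with satellites scored lower than broad peaks that stood alone. The 754 partners had a median score of 562 (512 to 617) and a median width of 8035 bp (7700 to 8440). The 236 isolated broad peaks, with no peak within 10000 bp, had a median score of 1187 (1015 to 1396) and a median width of 8995 bp (8190 to 9960). The summit was in the outer 10% of 36.1% of the partners (32.6 to 39.6) and of 48.3% of the isolated broad peaks (41.8 to 54.9). The intervals did not overlap for score or for summit position. Presence of neighbours is what separated the partners from the isolated broad peaks, and no test was made.

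Satellites were wider than narrow peaks that were isolated or lay in clusters of 2 to 9 without a broad peak. Their score relative to such clustered peaks depended on width. The 3653 narrow peaks of clusters over 9 peaks were not compared as a class. The median width of the satellites was 970 bp (910 to 1020). It stood against 780 bp (760 to 800) for the 6810 narrow peaks of clusters of 2 to 9 without a broad peak and 570 bp (560 to 590) for the 2686 isolated narrow peaks. Without regard to width, the median score was 71 (69 to 74) in satellites, 67 (66 to 69) in narrow peaks of clusters without a broad peak and 86 (82 to 87) in isolated narrow peaks. At 300 to under 400 bp, it was 41 (39 to 43), 39 (39 to 40) and 58 (54 to 60), respectively. At 1000 to under 2000 bp, the median score was 85.5 (79 to 93) in satellites, 114 (108 to 120) in narrow peaks of clusters without a broad peak and 148 (136 to 160) in isolated narrow peaks. At 3000 to under 5000 bp, satellites with 225 (200 to 267) and clustered narrow peaks with 226 (200 to 253) had nearly the same score. Satellites and clustered narrow peaks had medians of 45 and 46.5 at 400 to under 600 bp and 59 and 63 at 600 to under 1000 bp. At 2000 to under 3000 bp they had 154 (136 to 188) and 174.5 (157 to 188). The gap between them was thus largest from 1000 to under 3000 bp and small in the other classes. Over 6 width classes, weighted by the number of satellites, satellites scored 10.3 lower than clustered narrow peaks (a difference of −10.3) and 55.0 lower than isolated ones (−55.0). The former difference depended on the processing and was −26.3 with peaks within 500 bp merged first, −18.6 with only scores of 50 or more, and −18.1 with clusters of any size. Peaks scoring 974 or more, the top 1000 of all 20243 peaks in the list, included 55 satellites (2.58%, 1.95 to 3.34). They included 1.63% of the clustered narrow peaks (1.34 to 1.96), 1.68% of the isolated ones (1.22 to 2.24) and 32.6% of the broad partners. Each of these narrow classes held a smaller share than the whole list, at 1000 of 20243. These shares were not matched for width, and the satellites were the widest of the narrow classes compared. Regions of 1 list are not replicates, so these differences were described and not tested.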

How the data were processed

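Pol II ChIP-seq peaks of 4 hpf embryos were taken from the 1 list used here. According to the methods, the authors aligned reads to Zv10 (GRCz10) with Novoalign 2.8, placed reads with several equally good positions at random, merged technical replicates with SAMtools and called peaks with a multi-replicate wrapper around MACS2. The deposited score of each peak is a whole number and was read as 10 times −log10 q, although the list does not state this. The other deposited columns used, peak start and end and the summit's offset, are positions in bp. Random placement shares signal among copies of a repeat, so a satellite in repeated sequence can stand for another copy. The fold, p and q columns are 0 throughout and were left out. No depth is stated in the list, so intervals rest on counts of peaks.

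Satellites were found, and assigned to the broad peak with the smallest space between edges, with Python 3.11.15, NumPy 2.4.6, pandas 2.3.3 and SciPy 1.17.1. The steps were tested on simulated clusters. The members and the values described were chosen with earlier results of these data known. Named regions were the 10 highest scoring satellites, the 5 clusters with the most satellites (ties by covered length) and peaks at the rule's thresholds. Alternatives varied the stitching gap, the broad width, a score minimum, merging, the cluster size and chromosome 4. Those of the width-matched score difference were added after the data were seen. Positions are counted from 1. Analysis by gene direction was planned and not run, since no GRCz10 annotation was used here.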

Additional observations from a re-analysis of the deposited data

How the results depend on the processing

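No paired analysis was possible because only 1 joined list of the replicates was used, and for the same reason none could be left out. The share of satellites on the summit side stayed under 50% in all 14 alternatives, between 26.9% and 39.7%. It was 28.0% with peaks within 500 bp merged first, 35.4% with chromosome 4 included, 29.3% in clusters with exactly 1 broad peak, 26.9% with the summit in the outer 25% at either end, and 39.7% for the first satellite on each side, an alternative chosen after the data were seen, as were those by distance and score. Satellites numbered 1367 with broad peaks of 7500 bp or more and 4303 with clusters of any size. The median distance was 2590 bp with a stitching gap of 5000 bp, 3500 bp with 15000 bp, 2860 and 3640 bp with broad peaks of 4000 and 7500 bp or more, 4135 bp after merging, 5690 bp with clusters of any size, 490 bp with the nearest satellite of each broad peak and 3565 bp with exactly 1 broad peak. The median score was 66 and 78 with broad peaks of 4000 and 7500 bp or more, 94 with scores of 50 or more, 60 after merging, 63 with clusters of any size and 82 with the nearest satellite. The share above the broad peak was 13.0% with scores of 50 or more and 8.46% with clusters of any size, and that of broad peaks flanked on both sides was 32.9% after merging. The width-matched score difference to clustered narrow peaks was −7.39 with a gap of 15000 bp, −18.6 with scores of 50 or more, −26.3 after merging and −18.1 with clusters of any size. Some of these shifts follow from the setting itself. A score minimum raises the median score, and keeping only the nearest satellite shortens the distance. The cause of the other shifts was not tested. The share of satellites with their own summit in the part nearer the broad peak was 46.0% to 48.3% over 9 alternatives, and its interval included 50% with a stitching gap of 5000 bp (45.9 to 50.2), with broad peaks of 7500 bp or more (44.7 to 50.04) and with the nearest satellite (44.2 to 51.5). Depth was not known, so its limit on weak satellites could not be set.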

Other observations

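On chromosome 4, which was left out of the rule, the satellites were not placed mainly on the far side. The same rule gave 320 satellites there in 87 clusters, and 49.7% of them (exact binomial 95% interval 44.1 to 55.3) lay on the summit side of their broad peak, where the other 24 assembled chromosomes gave 33.3%. The 2 parts of the chromosome differed. Before 30 Mb, 27.8% of 72 satellites (17.9 to 39.6) were on the summit side, and from 30 Mb to the end 56.0% of 248 (49.6 to 62.3), an interval that includes 50%. Their median score, 73.5 (64 to 90), was close to the 71 of the other chromosomes, and their median distance from the broad edge was 5270 bp (4470 to 6220). On unplaced scaffolds the rule gave 40 satellites, of which 47.5% (31.5 to 63.9) were on the summit side. These values, and the split at 30 Mb, were chosen after the data were seen, and the differences were not tested.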
